A study of Mus musculus with 13 samples.

Results

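The genes described here are 35 enzymes and regulators of sterol and fatty acid synthesis, chosen by symbol from a list, out of 39171 genes in a table of FPKM, read fragments corrected for transcript length and library size. All 35 were found. By role they comprise 8 genes of the mevalonate steps, 11 genes that carry squalene to cholesterol, 5 genes of the SREBP system, 2 liver X receptors, 2 genes of sterol transfer and esters, and 7 genes of fatty acid synthesis. None was listed at 0 in any library, and all 35 passed the filter on low values, a mean of at least 1 FPKM over the libraries compared, in every comparison.

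The values came from spinal cord cells of C57BL/6 mice, sorted by flow cytometry and sequenced as bulk RNA in 13 libraries. The deleted gene, Il33, encodes a cytokine (interleukin-33) related to IL-1, and the KO line is that of Pichery et al. KO microglia were CD11b+ cells of mice with the Il33 KO at postnatal day 12 (3 libraries), and WT microglia were CD11b+ cells of littermate controls at day 12 (3 libraries). KO astrocytes were Aldh1l1-GFP+ cells of KO mice (4 libraries, library 2 from day 9 and the rest from day 12), and WT astrocytes were Aldh1l1-GFP+ cells of littermate controls (3 libraries, library 3 from day 9 and the rest from day 12). The GFP reporter marks cells by the activity of an astrocyte gene, and CD11b is shared by microglia and other myeloid cells. The design text calls the libraries of a group biological replicates, and the sources used here do not give sex, pooling of animals or whether the microglia carried the reporter.

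Il33 stood between 0.424 and 2.28 FPKM in KO astrocytes and between 96.3 and 113 FPKM in WT astrocytes, and did not exceed 1.26 FPKM in any microglia library. The 12 microglia markers summed to between 8859 and 9579 FPKM in microglia and to between 12.2 and 65.4 FPKM in astrocytes. The 11 astrocyte markers summed to between 84.0 and 148 FPKM in microglia and to between 8436 and 15918 FPKM in astrocytes, and both sorts also held markers of myelinating oligodendrocytes, a cell type that makes much cholesterol for myelin. Depth was estimated from the steps of low values, relative to KO microglia 2, the library with the highest estimate. It ran from 76.8% to 100% in microglia and from 33.9% to 62.9% in astrocytes, so a given low FPKM is noisier in astrocytes. How the FPKM were scaled between libraries is not stated, and the estimate may also reflect that scaling. The lowest correlation between replicates, across genes, was 0.760, between WT microglia 1 and 3. Xist, which is made in female cells, was at 268 and 283 FPKM in WT microglia 1 and 2 and under 1 FPKM in WT microglia 3 and the KO microglia. In astrocytes Xist was at 32.4 FPKM in KO library 4, 32.9 FPKM in WT library 2 and 10.1 FPKM or less in the others. Because the samples are bulk RNA, fewer cells of a type and less RNA per cell cannot be told apart.

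Cholesterol is built from acetyl-CoA through mevalonate and isoprenoids to squalene, which is closed into lanosterol and trimmed step by step. Fatty acids are built from the same acetyl-CoA, then elongated and desaturated. The SREBP transcription factors drive the genes of these pathways: SCAP carries them from the endoplasmic reticulum to the Golgi when sterols are low, INSIG proteins hold them back when sterols are high, and the liver X receptors, which sense oxysterols, raise SREBP-1c and cholesterol export. In the nervous system, which the blood-brain barrier largely cuts off from blood cholesterol, astrocytes and myelinating cells are known as main producers, while microglia take up and clear lipid.

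The 35 genes together summed to 481, 552 and 506 FPKM in KO microglia and to 511, 443 and 408 FPKM in WT microglia. In KO astrocytes they summed to 4060.1, 3782, 4006 and 4098 FPKM, and in WT astrocytes to 4263, 4069 and 4527 FPKM. Every astrocyte library was above every microglia library, and within each cell type the genotypes overlapped. The microglial sum was 12.9% of the astrocytic sum in KO and 10.6% in WT.

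The leading gene differed between the cell types. Scd2, a stearoyl-CoA desaturase that puts a double bond into saturated fatty acids, made up 33.3% ± 2.68 of the summed FPKM in KO astrocytes (SD, n = 4) and 37.4% ± 2.85 in WT astrocytes (SD, n = 3), against 9.44% ± 1.32 in KO microglia and 6.67% ± 1.07 in WT microglia (SD, n = 3 each). In microglia the first place went to Acly, which makes cytosolic acetyl-CoA from citrate, with 15.1% ± 4.46 of the sum in KO and 19.4% ± 4.31 in WT (SD, n = 3 each). Acly made up 2.96% ± 1.13 of the sum in KO astrocytes (n = 4) and 1.79% ± 1.07 in WT astrocytes (n = 3). Nr1h3, the liver X receptor LXR-alpha, was the lowest of the 35 in KO microglia and in both astrocyte groups, while in WT microglia Hsd17b7 had the lowest mean. That order rests on WT microglia 3, where Nr1h3 was at 4.91 FPKM, against 0.144 and 0.230 FPKM in libraries 1 and 2. Nr1h3 averaged 0.618 ± 0.455 FPKM in KO microglia, 1.76 ± 2.73 FPKM in WT microglia, 2.03 ± 1.85 FPKM in KO astrocytes and 2.28 ± 0.231 FPKM in WT astrocytes.

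**Figure D1:**
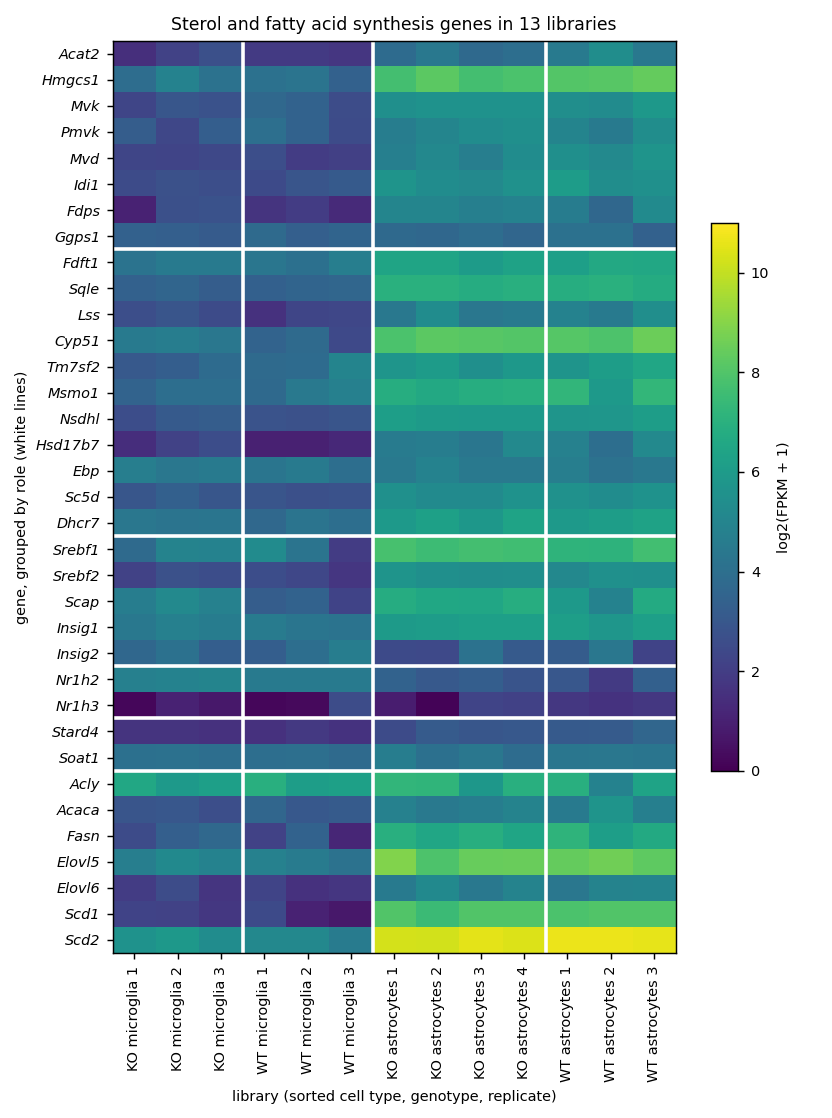
Levels of the 35 genes on the log2(FPKM + 1) scale (colour) in each library (columns), with genes in rows grouped by role and white lines between roles and between sample groups. Most rows are brighter in the 7 astrocyte columns, Scd2 is the brightest row there, and Nr1h2 is brighter in the 6 microglia columns.

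The first comparison set microglia against astrocytes within each genotype. In KO, 29 of the 35 genes were lower in microglia and 1 was higher, against 25.1% lower and 31.9% higher (56.9% in all) among the 16258 genes tested (limma, adjusted p under 0.05). In WT, 28 were lower and 1 was higher, against 24.5% lower and 29.1% higher (53.6% in all) among all genes. The median log2 difference of the 35 was −2.35 in KO and −2.69 in WT, where the median of all genes tested was 0.24 in KO and 0.21 in WT. The libraries of the cell types did not overlap for 29 genes lower in microglia in each genotype, against 28.1% of all genes in KO and 25.7% in WT, and for 1 gene higher, against 34.2% in KO and 30.1% in WT. The size of the gap varied widely: the median gene stood in microglia at 17.9% of its astrocyte mean in KO and at 12.3% in WT, and 7 genes in KO and 12 in WT stood under 10%.

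These comparisons depend on scale for the genes near the middle. The main scale is the deposited one, on which 56.0% of the called genes in KO and 54.3% in WT were higher in microglia; that share was 45.6% and 44.3% after quantile normalisation and 72.7% and 79.3% after rescaling without small and mitochondrial RNA. The last moved the median of all genes to 0.81 in KO and 1.18 in WT. On those values 27 of the 35 were lower and 2 higher in KO. Of all 16784 genes, 2655 were lower and 7059 higher there (57.9% called in either direction). In WT 24 of the 35 were lower and 5 higher, where 2046 of all 16784 genes were lower and 7858 higher (59% called in either direction). Insig1, Pmvk, Stard4 and Tm7sf2 then lost their call in WT, and Ggps1 and Scap theirs in KO. Relative to the median of all genes, the median of the 35 stayed within a narrow span, at −2.59, −2.56 and −2.53 in KO and −2.89, −2.88 and −2.79 in WT under the deposited, quantile and rescaled values. Genes that myelinating oligodendrocytes use were present in both sorts: 13 myelin markers summed to between 520.04 and 905 FPKM in KO microglia, between 257 and 378 FPKM in WT microglia, between 1523 and 2567 FPKM in KO astrocytes and between 1429 and 2402 FPKM in WT astrocytes. All 13 were above 1 FPKM in at least 1 library of every group, and their part in the result was not tested. Summed, the 11 astrocyte markers stood in microglia at 0.872% of their astrocyte level in KO and at 0.939% in WT, under the shares of most of the 35 genes. Single markers varied. Aldoc was at 8.94 to 18.9 FPKM in KO microglia and 2194 to 3129 FPKM in KO astrocytes, and Slc1a3 at 16.1 to 22.6 FPKM and 286 to 510 FPKM. Slc1a2, also among the 11, was listed at 0 in KO astrocytes 3 and WT astrocytes 1. The part of astrocyte RNA in the microglia values was not tested.

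**Figure D2:**
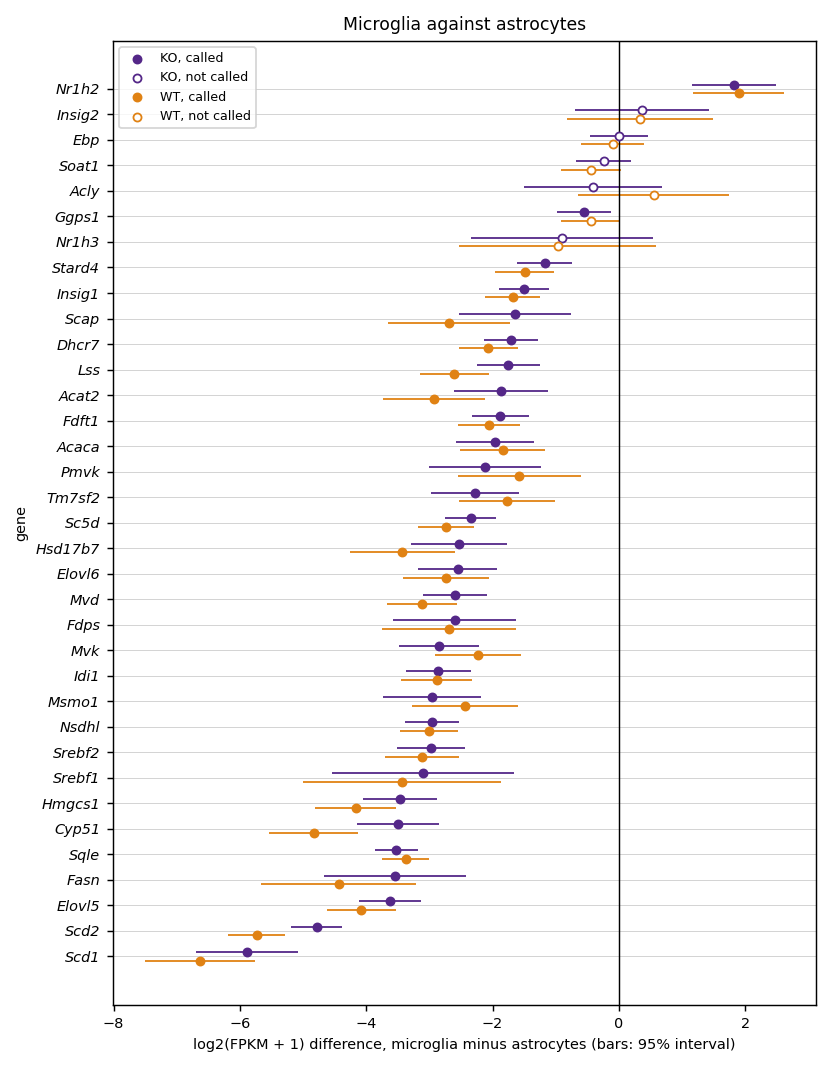
Log2(FPKM + 1) difference, microglia minus astrocytes, for each of the 35 genes in KO (purple, upper of each pair) and WT (orange, lower), with the 95% interval of the limma fit; filled points passed the adjusted p threshold. Nr1h2 lies to the right of 0, and Scd1 and Scd2 lie farthest to the left.

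The SREBP system followed the majority except for Insig2, with 4 of 5 genes lower in microglia in each genotype. Srebf1, which encodes SREBP-1, the form most tied to fatty acid synthesis, was at 13.0, 29.5 and 28.2 FPKM in KO microglia, 38.5, 17.8 and 2.91 FPKM in WT microglia, 219, 183, 211 and 198 FPKM in KO astrocytes and 143, 138 and 202 FPKM in WT astrocytes. Srebf2, which encodes SREBP-2, the form most tied to cholesterol synthesis, was at 3.56, 5.67 and 5.06 FPKM in KO microglia, 5.08, 4.08 and 2.36 FPKM in WT microglia, 50.3, 43.6, 41.0 and 42.7 FPKM in KO astrocytes and 34.0, 44.4 and 43.8 FPKM in WT astrocytes. For both genes all microglia libraries were below all astrocyte libraries, while WT microglia 3 was the lowest library for each. The difference was −3.10 (SE 0.65, limma adjusted p = 0.00207) in KO and −3.44 (SE 0.71, adjusted p = 0.00193) in WT for Srebf1, and −2.98 (SE 0.24, adjusted p = 2.08e-06) in KO and −3.12 (SE 0.26, adjusted p = 3.33e-06) in WT for Srebf2.

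Insig1, which retains the SCAP-SREBP complex in the endoplasmic reticulum and is itself an SREBP target, was at 20.3, 26.5 and 23.3 FPKM in KO microglia and 22.8, 18.2 and 17.1 FPKM in WT microglia. In astrocytes it was at 61.8, 66.2, 73.9 and 73.1 FPKM in KO and at 70.4, 54.0 and 71.9 FPKM in WT. Its groups did not overlap between cell types, with a difference of −1.50 (SE 0.18, adjusted p = 4.19e-05) in KO and −1.68 (SE 0.20, adjusted p = 3.87e-05) in WT. On the rescaled values Insig1 was not called in WT. Insig2, the second such retention protein, overlapped between cell types: it ran from 8.81 to 16.4 FPKM in KO microglia, from 8.88 to 24.0 FPKM in WT microglia, from 4.39 to 16.5 FPKM in KO astrocytes and from 3.67 to 19.6 FPKM in WT astrocytes. Its difference was 0.37 (95% interval −0.69 to 1.43) in KO and 0.33 (−0.83 to 1.48) in WT, and it did not pass (adjusted p = 0.535 and 0.621); on the rescaled values it was called higher in WT microglia.

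Among the mevalonate steps, which run from acetyl-CoA to farnesyl and geranylgeranyl diphosphate, 8 of 8 genes were lower in microglia in KO and 7 of 8 in WT. Hmgcs1, which makes HMG-CoA in the cytosol, was at 14.5, 28.5 and 16.5 FPKM in KO microglia and 16.0, 17.98 and 9.57 FPKM in WT microglia. In astrocytes Hmgcs1 was at 206, 298, 206 and 237 FPKM in KO and 269, 282 and 334 FPKM in WT. The lowest astrocyte library was thus well above the highest microglia library, and the difference was −3.46 (SE 0.26, adjusted p = 1.30e-06) in KO and −4.17 (SE 0.29, adjusted p = 7.17e-07) in WT. Mvk, Pmvk and Mvd, which phosphorylate and decarboxylate mevalonate, Idi1, which isomerises isopentenyl diphosphate, Fdps, which makes farnesyl diphosphate, and Acat2, the cytosolic thiolase, ranged in difference from −2.86 to −1.87 in KO and from −3.11 to −1.58 in WT. Ggps1, which leads away from sterols to geranylgeranyl diphosphate, had the smallest difference of the 8, at 8.97 ± 0.858 FPKM in KO microglia and 12.6 ± 1.32 FPKM in KO astrocytes (−0.55, adjusted p = 0.0310) and at 10.9 ± 1.91 FPKM in WT microglia and 14.1 ± 3.77 FPKM in WT astrocytes (−0.45, adjusted p = 0.0946). On the rescaled values Ggps1 was called higher in WT microglia.

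From squalene to cholesterol, 10 of 11 genes were lower in microglia in each genotype. Sqle, the squalene epoxidase, was at 9.66, 11.1 and 8.37 FPKM in KO microglia and 9.34, 10.7 and 11.3 FPKM in WT microglia. In astrocytes Sqle was at 124.9, 125.1, 112 and 123 FPKM in KO and at 115, 127 and 107 FPKM in WT, so that the groups stood far apart with little spread (−3.53, SE 0.15, adjusted p = 2.22e-08 in KO; −3.37, SE 0.17, adjusted p = 6.89e-08 in WT). Cyp51, which takes a methyl group off lanosterol, was at 21.2, 24.1 and 19.6 FPKM in KO microglia, 10.4, 12.8 and 4.31 FPKM in WT microglia, 237, 298, 280.4 and 267 FPKM in KO astrocytes and 269, 244 and 373 FPKM in WT astrocytes. The cell types did not overlap, and the difference was −3.50 (SE 0.29, adjusted p = 2.67e-06) in KO and −4.83 (SE 0.32, adjusted p = 5.03e-07) in WT.

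The other genes of this branch that were lower in microglia were Fdft1 (squalene synthase), Lss (lanosterol synthase), Tm7sf2 (a sterol reductase), Msmo1, Nsdhl and Hsd17b7 (removal of the next methyl groups), Sc5d (a desaturase) and Dhcr7 (the last reduction of one branch). Their differences ran from −2.96 to −1.71 in KO and from −3.43 to −1.77 in WT. The exception was Ebp, the sterol isomerase, an X-linked gene, which was at 24.9, 19.8 and 21.5 FPKM in KO microglia, 18.4, 22.2 and 14.8 FPKM in WT microglia, 21.1, 28.4, 20.99 and 21.1 FPKM in KO astrocytes and 25.4, 16.9 and 20.1 FPKM in WT astrocytes. All 4 groups overlapped, and the difference was 0.0040 (95% interval −0.45 to 0.46) in KO and −0.095 (−0.59 to 0.40) in WT. On the rescaled values Ebp was called higher in microglia in both genotypes.

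Fatty acid synthesis held the widest gaps, with 6 of 7 genes lower in microglia in each genotype and a median difference of −3.55 in KO and −4.08 in WT. Scd1, a desaturase encoded near Scd2, was at 3.69, 3.46 and 2.42 FPKM in KO microglia and 4.46, 1.08 and 0.652 FPKM in WT microglia. In astrocytes Scd1 was at 256, 177, 261 and 255 FPKM in KO and 233, 255 and 254 FPKM in WT. Its microglial mean was 1.35% of its astrocyte mean in KO and 0.834% in WT. The summed astrocyte markers stood at 0.872% and 0.939% in the same microglia. Scd1 differed by −5.89 (SE 0.36, adjusted p = 2.55e-07) in KO and −6.63 (SE 0.40, adjusted p = 2.46e-07) in WT. Scd2 was at 47.6, 57.9 and 40.2 FPKM in KO microglia, 33.8, 34.4 and 23.0 FPKM in WT microglia, 1256, 1198, 1480.1 and 1371 FPKM in KO astrocytes and 1623, 1623 and 1552 FPKM in WT astrocytes. The lowest astrocyte library was at 1198 FPKM and the highest microglia library at 57.9 FPKM, with a difference of −4.79 (SE 0.18, adjusted p = 9.26e-09) in KO and −5.74 (SE 0.20, adjusted p = 8.64e-09) in WT.

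Fasn, the fatty acid synthase, was at 4.76, 9.13 and 12.1 FPKM in KO microglia, 3.52, 10.1 and 1.24 FPKM in WT microglia, 122, 89.8, 119 and 88.3 FPKM in KO astrocytes and 140.2, 71.4 and 100.5 FPKM in WT astrocytes. Its microglia libraries spread widely but all lay below the astrocytes (−3.55, SE 0.51, adjusted p = 0.000156 in KO; −4.44, SE 0.55, adjusted p = 6.17e-05 in WT). Elovl5, an elongase of polyunsaturated fatty acids, was at 24.8, 36.8 and 27.96 FPKM in KO microglia, 27.3, 22.6 and 16.7 FPKM in WT microglia, 478, 241, 346 and 353 FPKM in KO astrocytes and 340.2, 389 and 306 FPKM in WT astrocytes. The cell types stood apart, at −3.62 (SE 0.22, adjusted p = 2.58e-07) in KO and −4.08 (SE 0.24, adjusted p = 2.51e-07) in WT. Elovl6, an elongase of saturated fatty acids, and Acaca, the acetyl-CoA carboxylase that commits carbon to the pathway, differed by −2.56 and −1.96 in KO and by −2.74 and −1.84 in WT.

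Acly, upstream of both pathways, was the gene of fatty acid synthesis that did not pass. Its levels were 95.3, 60.5 and 73.3 FPKM in KO microglia, 123, 69.1 and 75.6 FPKM in WT microglia, 149, 145, 54.9 and 122 FPKM in KO astrocytes and 121, 28.7 and 81.8 FPKM in WT astrocytes. KO astrocytes 3 and WT astrocytes 2 lay below every microglia library, and the other astrocyte libraries overlapped with them or lay above. The difference was −0.42 (95% interval −1.51 to 0.68) in KO and 0.55 (−0.64 to 1.74) in WT, and on the rescaled values Acly was called higher in WT microglia.

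The liver X receptors went the other way or did not pass. Nr1h2, which encodes LXR-beta, was at 27.0, 28.6 and 30.1 FPKM in KO microglia, 22.3, 21.3 and 21.5 FPKM in WT microglia, 9.92, 7.51, 8.62 and 6.15 FPKM in KO astrocytes and 6.87, 2.68 and 9.25 FPKM in WT astrocytes. It was the 1 gene of the 35 that was higher in microglia, by 1.82 (SE 0.30, adjusted p = 0.000411) in KO and 1.90 (SE 0.33, adjusted p = 0.000592) in WT, with no overlap. Nr1h3 differed by −0.90 (95% interval −2.34 to 0.53) in KO and by −0.97 (−2.53 to 0.59) in WT. Of the pair, Nr1h2 held 97.9% ± 1.51 of their summed FPKM in KO microglia and 93.2% ± 10.2 in WT microglia (SD, n = 3 each), against 81.3% ± 16.9 in KO astrocytes (n = 4) and 70.1% ± 11.7 in WT astrocytes (n = 3). Of the genes of sterol transfer and esters, Stard4, a cytosolic sterol carrier, was lower in microglia (−1.18, adjusted p = 0.000429 in KO; −1.49, adjusted p = 0.000156 in WT). Soat1, which esterifies cholesterol for storage, did not pass, at 15.5 ± 0.825 FPKM in KO microglia, 14.3 ± 1.35 FPKM in WT microglia, 18.4 ± 4.62 FPKM in KO astrocytes and 18.9 ± 0.652 FPKM in WT astrocytes.

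The promoters of the 35 genes were searched for motifs known from sterol control. RefSeq (GRCm38.p6) gave windows from 250 bases before to 50 after the start for 29 of the 35 genes and for 32851 promoters in all. A sterol regulatory element, searched as TCACNCCAC on both strands, lay in the window of 1 of the 29 genes (3.45%), Hmgcs1, against 1.44% of all genes. An inverted CCAAT box, the letters ATTGG on either strand and so also CCAAT, lay in 23 of 29 (79.3%), against 41.1% of all genes. A GC box, GGGCGG on either strand, lay in 21 of 29 (72.4%), against 38.2% of all genes, and the DR4 element of liver X receptors lay in 0 of 29, against 0.01% of all genes. Genes not called lower in WT microglia held the boxes too. Acly, Ebp, Insig2 and Soat1 had both, and Ggps1 had a CCAAT box. The shares of all genes took every gene with a promoter, whatever its level in these cells. Whether the boxes go with the difference between cell types was not tested. These are matches of letters in a short window, not sites of binding.

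The promoters of 5 genes are shown, 3 of genes far lower in microglia (Hmgcs1, Cyp51 and Fasn), 1 of the gene higher in microglia (Nr1h2) and 1 of the gene with the smallest p between genotypes in microglia (Scap). They lie at chr13:119690101-119690350 (plus strand), chr5:4104747-4104947 (minus), chr11:120824548-120824797 (minus), chr7:44553966-44554215 (minus) and chr9:110333038-110333287 (plus), on GRCm38.p6, 5′ to 3′ on the strand of the gene. Capitals mark the sterol regulatory element, CCAAT boxes and GC boxes. That of Cyp51 stops short of the RefSeq start, where the GENCODE transcript begins. Cyp51 is counted above with a CCAAT box, which begins 29 bases before the RefSeq start, in the part not shown.
Hmgcs1: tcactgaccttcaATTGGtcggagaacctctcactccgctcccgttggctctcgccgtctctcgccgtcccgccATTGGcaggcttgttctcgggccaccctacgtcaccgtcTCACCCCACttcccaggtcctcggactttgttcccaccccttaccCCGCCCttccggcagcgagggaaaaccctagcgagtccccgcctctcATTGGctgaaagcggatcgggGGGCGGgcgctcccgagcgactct
Cyp51: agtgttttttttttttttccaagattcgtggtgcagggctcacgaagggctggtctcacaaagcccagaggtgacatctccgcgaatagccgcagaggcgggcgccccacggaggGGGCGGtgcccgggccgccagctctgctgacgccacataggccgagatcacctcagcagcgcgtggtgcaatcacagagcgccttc
Fasn: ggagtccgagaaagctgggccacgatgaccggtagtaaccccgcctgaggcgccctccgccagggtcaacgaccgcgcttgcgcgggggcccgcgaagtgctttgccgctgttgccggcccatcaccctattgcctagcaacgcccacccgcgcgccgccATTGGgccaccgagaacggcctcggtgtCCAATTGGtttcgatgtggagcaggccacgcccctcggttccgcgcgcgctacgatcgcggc
Nr1h2: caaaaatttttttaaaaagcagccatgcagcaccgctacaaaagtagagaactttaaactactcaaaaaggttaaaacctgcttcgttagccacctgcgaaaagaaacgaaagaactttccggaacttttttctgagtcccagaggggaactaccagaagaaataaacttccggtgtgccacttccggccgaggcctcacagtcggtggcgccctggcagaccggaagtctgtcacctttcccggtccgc
Scap: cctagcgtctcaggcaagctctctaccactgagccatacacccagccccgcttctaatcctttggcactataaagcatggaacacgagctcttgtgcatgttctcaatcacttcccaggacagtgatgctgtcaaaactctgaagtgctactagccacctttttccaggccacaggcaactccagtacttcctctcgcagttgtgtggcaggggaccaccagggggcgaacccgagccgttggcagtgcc
In the Hmgcs1 promoter the sterol regulatory element begins 137 bases before the start, between CCAAT boxes that begin 176 and 45 bases before it. The Fasn promoter holds a CCAAT box on each strand that overlap as CCAATTGG, and the stretches shown for Nr1h2 and Scap hold none of the letters searched. Scap is still counted above with a GC box, because a match begins 38 bases after this start, beyond the stretch shown. The window of another RefSeq start of Scap also holds GC boxes.

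The second comparison asked whether the loss of Il33 went with a change of these genes in microglia. Xist was low in all KO microglia and high in WT microglia 1 and 2, so for those libraries genotype and a difference that goes with Xist cannot be told apart. With limma's adjusted p over all 15889 genes tested, 0 of the 35 genes were called in KO against WT microglia, where 13 of all genes (0.0818%) were called (0.0566% higher and 0.0252% lower). At an unadjusted p under 0.05 stood 5 of the 35 (14.3%), all with a positive difference, against 7.96% of all genes. Without KO microglia 2 only 1 of the 35 did (2.86%, against 4.26% of all genes). With any other library left out 3 to 6 did (8.57% to 17.1%, against 4.64% to 12.6% of all genes). The median difference of the 35 was 0.25, and that of all genes 0.02. Without KO microglia 2 the median of the 35 was 0.13, and without WT microglia 3 it was 0.17. On the rescaled values it was 0.08 and that of all genes −0.14, and 3 of the 35 (8.57%) stood at an unadjusted p under 0.05, against 7.24% of all genes. The libraries of the genotypes did not overlap for 7 genes with higher values in KO (20%, against 8.41% of all genes) and for 1 with lower values (2.86%, against 7.48%).

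Scap had the smallest p of the 35. This gene, at chr9:110333288-110384950 on the plus strand, encodes the escort protein of the SREBPs. It was at 24.5, 35.3 and 27.8 FPKM in KO microglia and at 8.34, 9.99 and 3.69 FPKM in WT microglia. Every KO library was above every WT library, and the difference was 1.93 (SE 0.36, limma adjusted p = 0.365). Of its exonic length 13.2% overlaps a gene model on the other strand, 5830462I19Rik, and since it is not stated whether the libraries keep strand, reads of either may count for the other.

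Cyp51 followed, with the values given above: the KO microglia lay between 19.6 and 24.1 FPKM and the WT microglia between 4.31 and 12.8 FPKM, without overlap (1.26, SE 0.38, limma adjusted p = 0.553). For Scd2 the KO microglia lay between 40.2 and 57.9 FPKM and the WT microglia between 23.0 and 34.4 FPKM, again without overlap (0.67, SE 0.23, limma adjusted p = 0.584). The others without overlap and with higher values in KO were Nr1h2, Hsd17b7, Lss and Sc5d. Hsd17b7, a reductase that acts on the sterol ring, was at 1.69, 3.46 and 5.03 FPKM in KO microglia and at 1.04, 1.04 and 1.40 FPKM in WT microglia. Lss was at 5.29, 6.54 and 4.70 FPKM in KO and at 1.95, 3.90 and 3.99 FPKM in WT. For Hsd17b7 the KO libraries spread widely and the lowest lay close to the WT libraries. Acaca was the gene without overlap and with lower values in KO, at 6.48, 6.87 and 5.32 FPKM in KO microglia and at 11.5, 7.07 and 7.87 FPKM in WT microglia (−0.42, SE 0.23, adjusted p = 0.662).

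By role, the median difference in microglia was −0.06 for the mevalonate steps, 0.25 from squalene to cholesterol, 0.28 for the SREBP system and 0.42 for fatty acid synthesis. The regulators beside Scap overlapped between genotypes: the difference was 0.70 (95% interval −1.44 to 2.84) for Srebf1, 0.28 (−0.47 to 1.02) for Srebf2 and 0.26 (−0.20 to 0.72) for Insig1. Among enzymes whose genotypes overlapped, the interval was −0.65 to 2.49 for Fasn, −0.57 to 1.86 for Scd1, −0.44 to 1.26 for Hmgcs1 and −0.54 to 0.34 for Sqle. In simulated data of this design, 18% of genes changed by 2 on the log2 scale and 2% of those changed by 1 were called, so a call was within reach of few changes of this size.

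Other values moved with the genotype in microglia. The 13 myelin markers summed to 542, 905 and 520.04 FPKM in the KO libraries and to 378, 364 and 257 FPKM in the WT libraries, without overlap. Of the 35 genes, 23 had a difference above 0, Scap, Cyp51 and Scd2 among them, and 12 had one below 0, Acaca among them. The part of the myelin markers in the result was not tested. The 8 neutrophil markers summed to between 55.1 and 116 FPKM in KO microglia and between 131 and 261 FPKM in WT microglia, the 8 neuron markers to between 4.76 and 6.07 FPKM in KO and between 9.06 and 47.6 FPKM in WT, and the 9 border macrophage markers to between 314 and 349 FPKM in KO and between 233 and 678 FPKM in WT. Their part was not tested either, and the neutrophil gene Ly6g was listed at 0 in all microglia libraries. WT microglia 3 was less than 50% of the next lowest WT library for 6 genes (Cyp51, Fasn, Mvk, Pmvk, Scap and Srebf1) and more than 2 times the next highest for Nr1h3 and Tm7sf2. Without that library the differences were 1.56 for Scap, 0.85 for Cyp51 and 0.48 for Scd2. Without WT microglia 1 and 2, the libraries high in Xist, WT microglia 3 stood alone and was assumed to vary like the KO libraries; 1 of the 35 genes, Cyp51, was then called (2.09, adjusted p = 0.0473), and Scap was at 2.67 (adjusted p = 0.0643). That is 2.86% of the 35, against 2.31% of all genes (361) in the same fit. That alternative was chosen after seeing the data.

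**Figure D3:**
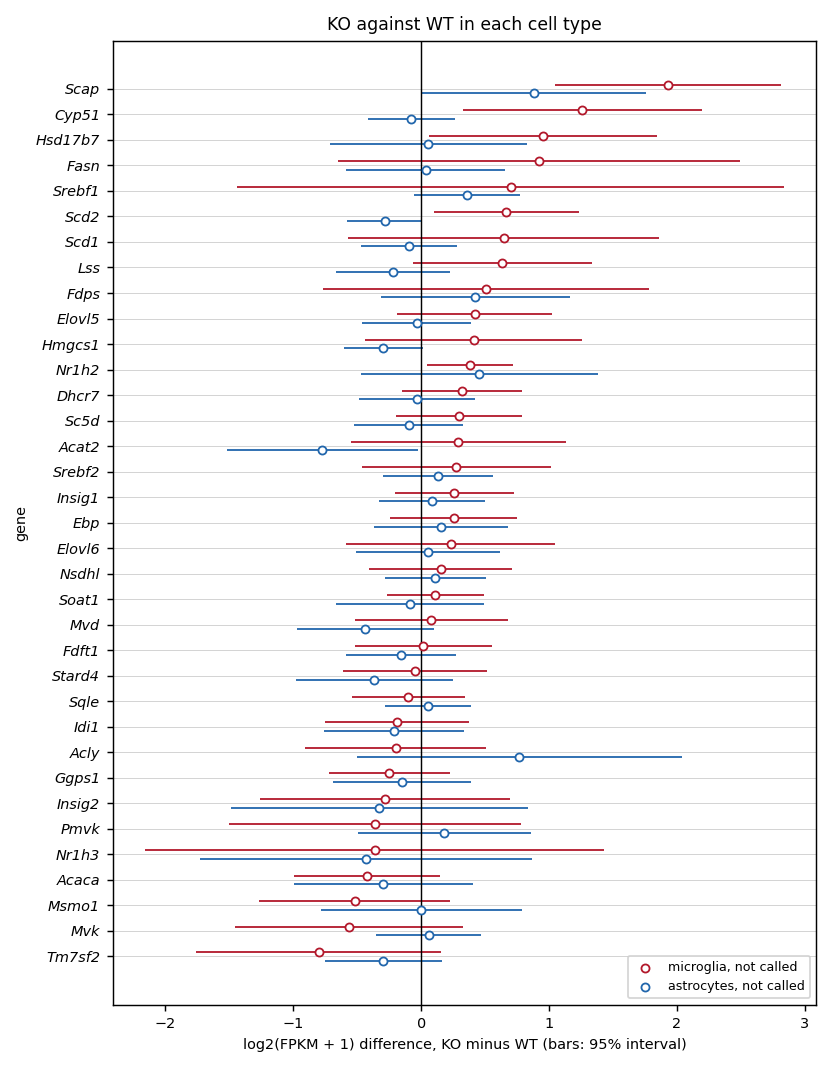
Log2(FPKM + 1) difference, KO minus WT, for each of the 35 genes in microglia (red, upper of each pair) and astrocytes (blue, lower), with the 95% interval of the limma fit and genes in order of their microglial difference. Open points mark genes that did not pass the adjusted p threshold, which holds for all 35 genes in both cell types, and Scap lies farthest to the right in microglia at 1.93.

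**Figure D4:**
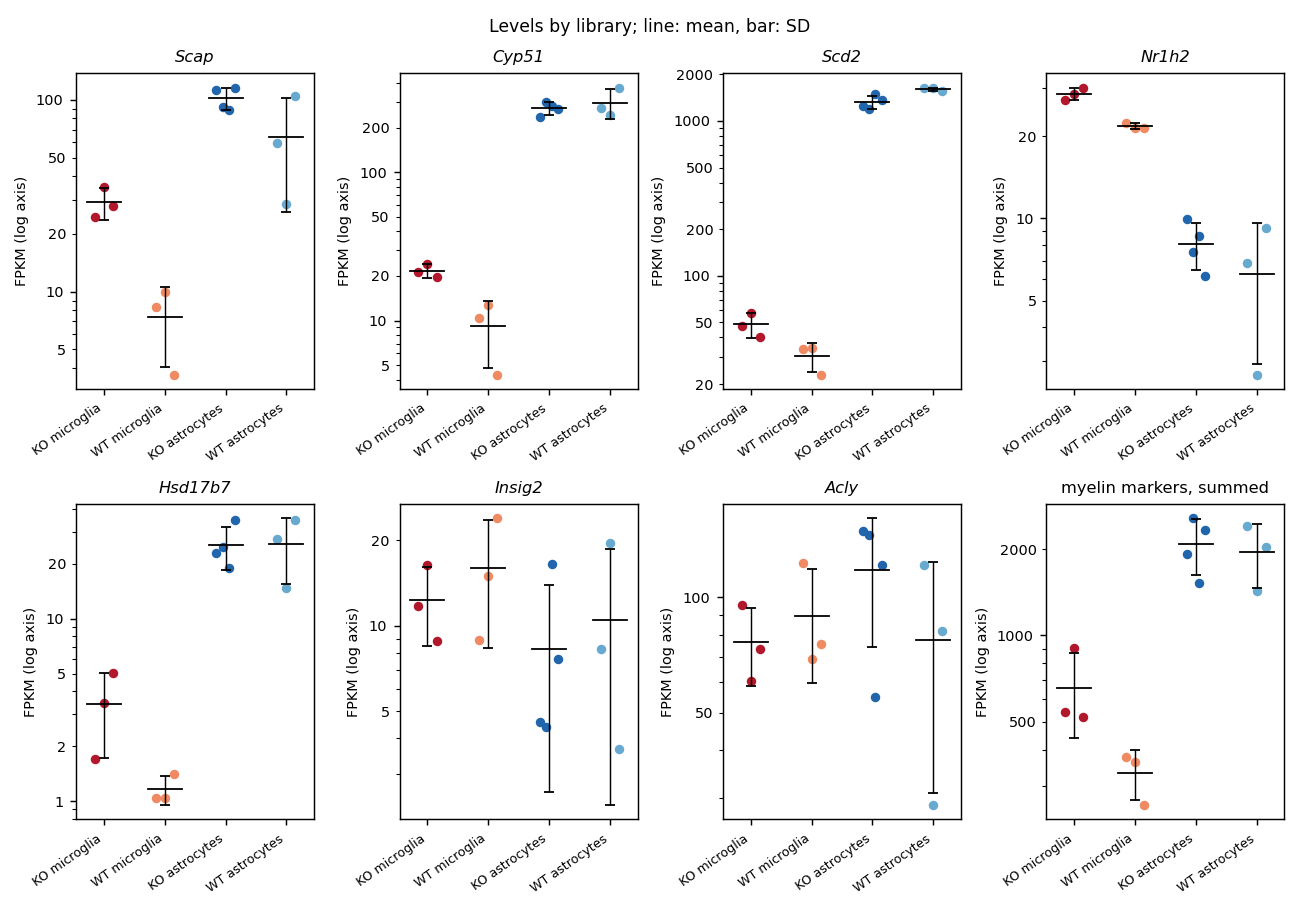
FPKM by library (points, log axis) with mean (line) and SD (bar) for 7 of the genes and for the 13 myelin markers summed. KO microglia lie above WT microglia without overlap for Scap, Cyp51, Scd2, Nr1h2, Hsd17b7 and the myelin markers, while Insig2 and Acly overlap.

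In astrocytes, where 3 of 13397 genes (0.0224%, 0.00746% higher and 0.0149% lower) were called between genotypes, 0 of the 35 genes were called in KO against WT. At an unadjusted p under 0.05 stood 2 of the 35 (5.71%), against 4.19% of all genes, and the median difference was −0.04 for the 35 and 0.00 for all genes. On the rescaled values both medians were 0.27, and 30 of the 35 differences lay above 0, against 16 on the deposited scale. The groups did not overlap for 0 genes with higher values in KO, against 2.32% of all genes, and for 2 with lower values (5.71%, against 2.36%). These were Acat2 and Scd2. With 1 library left out, which can only add genes, up to 5 were higher (without WT library 3, 14.3%, against 7.94% of all genes) and up to 5 lower (without KO library 2, 14.3%, against 4.51%).

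Acat2, which condenses acetyl-CoA at the entry to the mevalonate steps, was at 13.3, 20.4, 12.6 and 14.5 FPKM in KO astrocytes and at 21.8, 40.6 and 20.4 FPKM in WT astrocytes. Library 2 of KO and library 3 of WT, both of day 9, stood nearly level at 20.4 FPKM, and WT library 2 was by far the highest. The difference was −0.77 (SE 0.32, limma adjusted p = 0.921), and it was −0.40 without WT library 2. For Scd2 the KO astrocytes lay between 1198 and 1480.1 FPKM and the WT astrocytes between 1552 and 1623 FPKM (−0.29, SE 0.12, limma adjusted p = 0.921), and on the rescaled values the sign turned (0.026). Scap was at 113, 92.0, 88.8 and 115 FPKM in KO astrocytes and at 59.3, 28.6 and 105 FPKM in WT astrocytes, with overlap (0.88, SE 0.37, limma adjusted p = 0.921). Its difference was 0.41 without WT library 2. That library, with the lowest estimated depth, was less than 50% of the next lowest WT library for Acly, Msmo1, Nr1h2 and Scap. It was more than 2 times the next highest for Acaca and Insig2. The myelin markers overlapped between the genotypes in astrocytes.

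The third comparison tested whether the genotype difference itself differed between the cell types. Here 0 of the 35 genes were called, where 23 of 16258 genes (0.141%, 0.0861% above 0 and 0.0554% below) were, and 4 of the 35 (11.4%) stood at an unadjusted p under 0.05, against 6.62% of all genes. Scd2 had the smallest p: the genotype difference in microglia was larger than that in astrocytes by 0.95 (SE 0.26, 95% interval 0.37 to 1.53, limma adjusted p = 0.461). Cyp51 followed with 1.34 (SE 0.41, limma adjusted p = 0.599) and Lss with 0.86 (SE 0.32, limma adjusted p = 0.722). For Lss the astrocyte libraries were at 20.1, 40.2, 19.6 and 21.2 FPKM in KO and at 28.5, 22.0 and 41.6 FPKM in WT, where the highest library of each genotype was the one of day 9. For Scap, whose values were higher in KO on average in both cell types, the interaction was 1.05 (95% interval −0.20 to 2.30). The median interaction was 0.18 over the 35 and 0.01 over all genes, and both were below 0 on the rescaled values (−0.27 and −0.36).

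Age could be compared in astrocytes, with 5 libraries of day 12 against 2 of day 9, 1 of each genotype. None of the 35 genes was called (0 of 35, against 13 of 13397 genes, 0.097%, with 0.0523% higher and 0.0448% lower), and 3 of the 35 (8.57%) stood at an unadjusted p under 0.05, against 8.61% of all genes. On the rescaled values 14 of the 35 (40%) did, against 17.1% of all genes, with 33 of the 35 lower at day 12 and a median of −0.72, where that of all genes was −0.46. The 3 genes on the deposited scale were Lss (−0.84, SE 0.20, limma adjusted p = 0.295), Hmgcs1 (−0.38, SE 0.14, limma adjusted p = 0.541) and Elovl5 (0.48, SE 0.20, limma adjusted p = 0.562). Of the 35 genes, 23 had a lower value at day 12 and the median difference was −0.17, where that of all genes was 0.02. Without WT library 3, 1 of the libraries of day 9, the median of the 35 was 0.03. For Elovl5 the sign turned on the rescaled values (−0.074).

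Ratios taken within a library do not depend on how libraries are scaled to each other, and were described without a test because they were chosen after the values were seen. The 7 genes of fatty acid synthesis summed to 0.902 ± 0.126 times the sum of the 19 sterol enzymes in KO microglia and 0.861 ± 0.251 times in WT microglia (SD, n = 3 each), against 1.66 ± 0.255 times in KO astrocytes (n = 4) and 1.67 ± 0.263 times in WT astrocytes (n = 3). The lowest astrocyte ratio, 1.32, was above the highest microglial one, 1.15. Without Scd2 the ratio was 0.655 ± 0.108 in KO microglia and 0.699 ± 0.227 in WT microglia. It was then 0.657 ± 0.142 in KO astrocytes and 0.573 ± 0.0921 in WT astrocytes, and the cell types overlapped. The largest gene left in the microglial sum was Acly, at 60.5 to 123 FPKM. Acly did not pass between cell types and was at 28.7 to 149 FPKM in astrocytes. Leaving out Acly as well was not tested, so the overlap does not tie the gap to Scd2 alone. Scd2 exceeded Scd1 by 15.4 ± 2.19 times in KO microglia and 24.9 ± 15.1 times in WT microglia, against 5.68 ± 0.789 times in KO astrocytes and 6.47 ± 0.435 times in WT astrocytes. All microglia libraries lay above all astrocyte libraries here too, by little for WT microglia 1 (7.57). The microglial ratio rests on low values of Scd1, at 4.46, 1.08 and 0.652 FPKM in WT microglia 1, 2 and 3. Srebf1 over Srebf2 did not separate the cell types, at 4.81 ± 1.03 in KO microglia, 4.39 ± 3.17 in WT microglia, 4.58 ± 0.415 in KO astrocytes and 3.98 ± 0.786 in WT astrocytes.

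The transcripts of the escort and retention proteins were set against each other in the same way. Insig1 over Insig2 stood at 1.73, 1.62 and 2.64 in KO microglia and at 2.57, 1.22 and 0.710 in WT microglia, against 13.5, 15.1, 4.47 and 9.60 in KO astrocytes and 8.52, 2.76 and 19.6 in WT astrocytes. Every astrocyte library was above every microglia library, though WT astrocytes 2 only just. Scap over Insig1 was 1.21, 1.33 and 1.196 in KO microglia and 0.365, 0.548 and 0.216 in WT microglia, so each KO library held more Scap than Insig1 and each WT library less. The ratio ran from 1.203 to 1.82 in KO astrocytes and from 0.529 to 1.45 in WT astrocytes, with overlap.

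**Figure D5:**
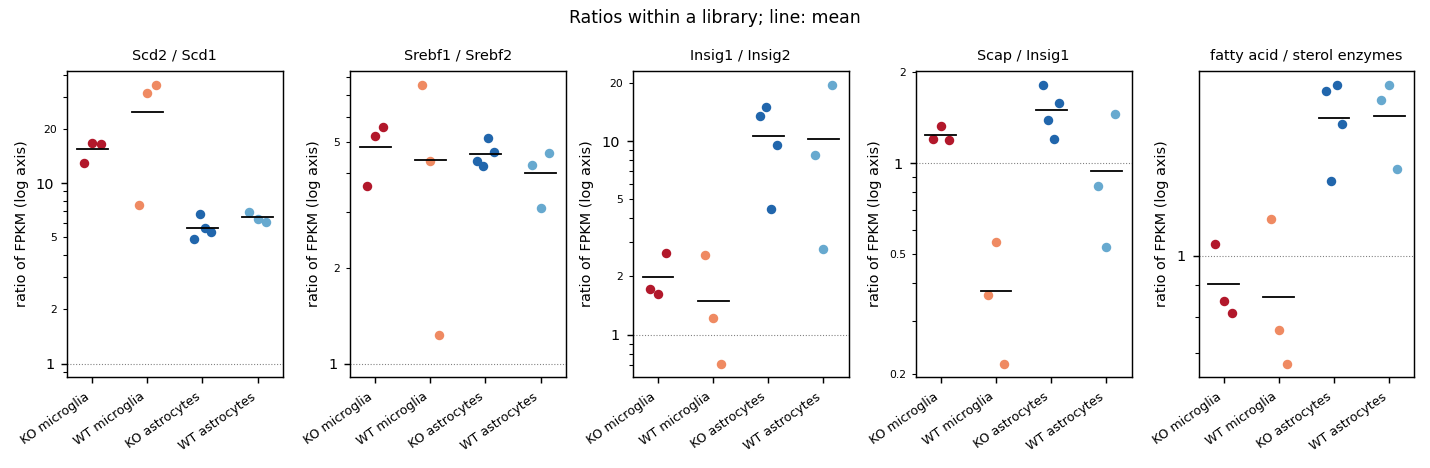
Ratios of FPKM within each library (points, log axis) with the mean of each group (line) and a dotted line at 1. Fatty acid over sterol enzymes (Scd2 included) and Insig1 over Insig2 are higher in astrocytes. Scd2 over Scd1 is higher in microglia, where Scd1 is low, and Scap over Insig1 separates KO from WT microglia.

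Other genes of these pathways were read from a list of 46, of which 45 were in the table. In microglia against astrocytes, 7 were higher, 24 lower and 14 not called in KO, and 7 were higher, 23 lower and 15 not called in WT, where 25.1% (KO) and 24.5% (WT) of all genes were lower and 31.9% (KO) and 29.1% (WT) higher. Fads2, the delta-6 desaturase of polyunsaturated fatty acids, had the smallest p, at 5.24 ± 0.235 FPKM in KO microglia, 3.79 ± 0.572 FPKM in WT microglia, 689.6 ± 38.0 FPKM in KO astrocytes and 677 ± 122 FPKM in WT astrocytes (−6.72 in KO and −7.05 in WT, limma adjusted p = 6.15e-10 and 1.41e-09). Elovl2, an elongase of the same fatty acids, differed by −6.92 in KO and −6.64 in WT, and Me1, a malic enzyme that supplies NADPH, by −5.23 in KO and −5.57 in WT. Between genotypes and between ages 0 of these genes were called by limma. Acsl1, which activates long-chain fatty acids, had the smallest p in microglia, at 24.7, 28.8 and 23.4 FPKM in KO and 11.8, 15.9 and 12.02 FPKM in WT (0.91, SE 0.19, adjusted p = 0.427), without overlap. It was the 1 gene of the 42 tested there at an unadjusted p under 0.05, a level reached by 7.96% of all genes. Mylip, an LXR target in other tissues that marks lipoprotein receptors for breakdown, was at 39.0, 40.0 and 37.8 FPKM in KO microglia and at 33.7, 30.2 and 25.0 FPKM in WT microglia (0.39, adjusted p = 0.596). In astrocytes Tmem97, a sterol-regulated membrane protein, had the smallest p between genotypes (−0.53, adjusted p = 0.921), and 0 of 44 were at an unadjusted p under 0.05 (4.19% of all genes). In the interaction 2 of 45 were (6.62% of all genes), and between ages 4 of 44 (8.61% of all genes). Between ages, Acsl6, another acyl-CoA synthetase, was at 487, 554 and 481 FPKM in KO libraries 1, 3 and 4 and 530 and 447 FPKM in WT libraries 1 and 2 of day 12, against 225 FPKM in KO and 251 FPKM in WT of day 9 (1.06, SE 0.15, adjusted p = 0.101).

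The authors' deposited table of genes that differ between genotypes lists 483 genes for microglia and 10 for astrocytes, and 0 of the 35 genes and 0 of the 45 other pathway genes stand in either.

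Some of the values are uncertain because reads may be shared with other genes. Copies with at least 95% identity over at least 300 bases exist for 8 of the 35: pseudogenes of Acaca, Elovl6, Fdft1, Fdps, Ggps1 and Idi1, the genes Acat3 and Tcp1 for Acat2, and Scd1 for Scd2 (95.5% over 623 bases). Scd2 (chr19:44293674-44306864, plus strand) and Scd1 (chr19:44394455-44407879, minus strand) lie near each other without overlap. Exons of other genes overlap Fdps (26.7% of its exonic length, Gm43738), Fdft1 (18.3%, Ctsb, a lysosomal protease gene on the other strand), Hmgcs1 (12.1%, Gm48342) and Tm7sf2 (12.1%, Vps51). Gm43738 and Vps51 lie on the strand of the member and the others on the opposite one; neither strandedness nor how shared reads were counted is stated.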

How the data were processed

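Per the labels' protocols, total RNA was taken up in TRIZOL, freed of DNA, cleaned and amplified with a NuGEN kit. GRCm38 is the build, and Cufflinks, Cuffnorm, DESeq2, HTSeq 0.6.1p1, TopHat2 2.0.11, Bowtie2 2.2.3 and FastQC are the tools, per the submitters' processing notes. The authors deposited FPKM for 39171 genes, and how these were scaled between libraries is not stated; the absolute depth is unknown. Per the file headers, the authors' tables of genes that differ hold a normalised signal (mean normalised counts), a log2 fold change of WT over KO and an adjusted p-value.

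GENCODE release 21 held 37691 identifiers (96.2%). Differences were fitted on log2(FPKM + 1) with two-sided moderated tests (limma 3.58.1 under R 4.3.3, eBayes with trend), keeping genes with a mean of at least 1 FPKM. Benjamini-Hochberg adjusted p under 0.05 over all genes made a call. Microglia were fitted alone, astrocytes alone with age as a covariate, and cell types and the interaction over all 13 libraries with age. This scale understates changes of low genes. FPKM are given as mean ± SD. Relative depth came from the steps of low values. The fit was tested on simulated data. Alternatives were pseudocounts of 0.1 and 5, no filter or a minimum of 5 FPKM, quantile normalisation, rescaling without small and mitochondrial RNA, 1 library left out, a replicate block, other age terms and, chosen after seeing the data, leaving out WT microglia 1 and 2.

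Values in every library were given for the main regulators and enzymes and, per comparison, for up to 6 called genes per direction or the 3 with the smallest p. The members, lists and rule were chosen with earlier results of these data known. Python 3.11.15 and matplotlib 3.10.9 were used for tables and figures.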

Additional observations from a re-analysis of the deposited data

Results flagged for a closer look

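In a group of 4 KO astrocyte libraries, 1 library stood apart from the others for 4 of the 35 genes tested. Chance flags about 1 in 20 groups in this way. Mvk was at 43.6 FPKM in library 1 and between 47.7 and 48.5 FPKM in the others. Library 2, the only KO astrocyte library of day 9, stood apart for the other genes: Lss was at 40.2 FPKM there and at 19.6 to 21.2 FPKM in the others, Ebp at 28.4 FPKM and 20.99 to 21.1 FPKM, and Scd1 at 177 FPKM and 255 to 261 FPKM. The WT astrocyte library of day 9 was also the highest WT library for Lss (41.6 FPKM), but it was in the middle for Ebp (20.1 FPKM) and for Scd1 (254 FPKM). Groups of 3 libraries were not tested for this.

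For Scd2 the KO libraries were all above the WT libraries in microglia and all below them in astrocytes. The genotype difference in microglia was larger than that in astrocytes by 0.95 on the log2(FPKM + 1) scale; it did not pass after adjustment over all genes (limma adjusted p = 0.461, and from 0.301 to 0.900 over the alternatives). On the rescaled values the astrocyte difference was 0.026.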

How the results depend on the processing

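The counts of the 35 genes called between cell types held within 1.5 times under all alternatives run: 28 to 30 in KO and 27 to 30 in WT, and 29 to 30 in each with 1 library left out. Between genotypes, in the interaction and between ages the count was 0 to 0 with 1 library left out and 0 under the other alternatives, except 1 (Cyp51) in KO against WT microglia without WT libraries 1 and 2. Among the named differences, 2 that were not called changed sign, both on the values rescaled without small and mitochondrial RNA: Scd2 in KO against WT astrocytes (0.026) and Elovl5 in day 12 against day 9 (−0.074); the cause was not tested.

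The replicate numbers were not seen to pair the samples strongly: deviations of same-numbered libraries correlated between −0.08 and 0.03. For KO against WT microglia the correlation was 0.012 to 0.028 for equal numbers and −0.021 to −0.00045 for unequal ones. This check cannot exclude a pairing, and a pairing by anything other than these numbers was not tested. With the replicate block, 28 of the 35 genes were called between cell types in KO and 30 in WT, and 0 between genotypes in microglia, 0 in astrocytes and 0 in the interaction.

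Over all genes, the calls between genotypes in microglia (13) ran from 3 with the block to 48 without KO library 1, and to 361 (2.31%) without WT libraries 1 and 2. Those in astrocytes (3) ran from 0 to 8, in the interaction (23) from 8 to 75, and between ages (13) from 6 to 82. Of genes without overlap between KO and WT microglia, 7 to 12 were higher and 1 to 4 lower with 1 library left out, which can only add genes; of all genes 10.7% to 16.6% were then higher and 9.5% to 16% lower. In simulated data, 34% of genes changed by 2 on the log2 scale were called between genotypes in astrocytes and 42% between WT cell types. For the cell types, 100 of 16258 genes were given that change, whereas 53.6% of all genes were called in the real data. How often a change of 2 is called when so many genes differ was not tested.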
